A study of Canis lupus familiaris with 31 samples.

Results

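Genes of cholesterol synthesis, of its feedback control and of cholesterol movement inside cells were followed in whole-blood RNA of Miniature Schnauzer dogs with and without HTG, a raised level of triglycerides in the blood. The 30 genes were chosen by their names as members of these pathways, and 27 of them were found by symbol among the 32704 rows of the table of counts. HMGCS1, IDI1 and EBP had no row with that symbol and were not analysed here. Of the 27 genes, 26 passed the filter on low counts, and MSMO1, a sterol C4-methyl oxidase with 0 counts in 13 dogs and at most 19 counts in any, did not. The 26 tested genes comprised 6 enzymes that lead from acetyl-CoA to isoprenoids, 9 enzymes that lead from isoprenoids through squalene to cholesterol, 7 regulators, and 4 proteins of sterol transport and storage.

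The groups were 13 HTG cases and 18 controls, with 1 library of whole-blood RNA per dog. All 31 dogs were adults of the same breed and carried no engineered allele, and 18 were male and 13 female. Per the study's methods, the dogs were fasted, the males castrated and nearly all females spayed, and dogs on drugs that alter blood lipids, statins among them, were not enrolled. Between 14524659 and 41533599 read pairs were counted on genes per dog, and levels are given as CPM, counts scaled to a common library total, or as log2 CPM, which compare dogs for the same gene but not different genes, whose lengths were not given.

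Cholesterol is built from acetyl-CoA through mevalonate, isoprenoids, squalene and lanosterol. When a cell's membranes hold little sterol, SCAP escorts the transcription factors SREBP1 and SREBP2 (genes SREBF1 and SREBF2) to the Golgi, where the proteases S1P and S2P (genes MBTPS1 and MBTPS2) free them to switch on genes of sterol and fatty acid synthesis, and when sterol is plentiful the INSIG proteins hold SCAP back. The liver is the main organ of whole-body cholesterol handling, while the RNA measured here came from circulating leukocytes, platelets and immature red cells.

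Several features of the libraries touch the results below. Over 345 small non-coding RNA genes, the mean level of 10 dogs (5 cases and 5 controls) was at least 1.76 log2 CPM and that of the other 21 (8 cases and 13 controls) at most 1.45. This division is called the small RNA split, with a high and a low side. Per the methods, 10 libraries, of 5 cases and 5 controls, were prepared earlier. The study saw a batch effect and fitted batch as a covariate. Whether those libraries are the 10 of the high side cannot be told apart, because the dogs prepared earlier are not named. The dogs case_01 and control_03 had the highest erythroid marker scores, 2.53 and 2.69, where a marker score is the mean log2 CPM of a cell type's marker genes, each set relative to its own mean across dogs. The platelet marker score was higher in the cases by 0.576 (permutation test, two-sided, 100000 resamples, P = 0.00584, adjusted over 8 cell types P = 0.0467), with all 9 tested markers higher and 1 further marker at 0 in every dog. The erythroid score differed by 0.741 (permutation P = 0.0743, 8 of 9 markers higher), the neutrophil score by 0.425 (permutation P = 0.0444, adjusted P = 0.178, 5 of 7 markers higher) and the T cell score by -0.173 (permutation P = 0.184, 0 of 8 markers higher). The eosinophil score differed by -0.397 (permutation P = 0.112, 0 of 2 markers higher), and the B cell, cytotoxic and monocyte scores by 0.208, 0.312 and 0.129 (permutation P = 0.214, 0.267 and 0.42). Defining markers of blood cells were present in every dog, with summed levels of 3553 to 16203 CPM for 7 neutrophil markers, 768 to 28651 CPM for 9 erythroid markers and 275 to 765 CPM for 8 T cell markers.

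In the comparison of HTG cases with controls, none of the cholesterol genes passed the test. With edgeR's quasi-likelihood test and Benjamini-Hochberg adjustment over all 13918 genes tested, 0 of the 26 members reached an adjusted P-value of 0.05 or less, where 0.0359% of all genes did. DESeq2 and limma-voom also called 0 members. At an unadjusted P-value under 0.05 there were 2 members, LSS and SREBF1, both higher in the cases, or 7.69% of the members, while 9.81% of all genes reached it, 5.04% higher and 4.76% lower in the cases. The median log2 fold change of the members was 0.04, against -0.02 for all genes, and 16 of 26 estimates were above 0 (61.5%, against 45.5% of all genes).

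**Figure D1:**
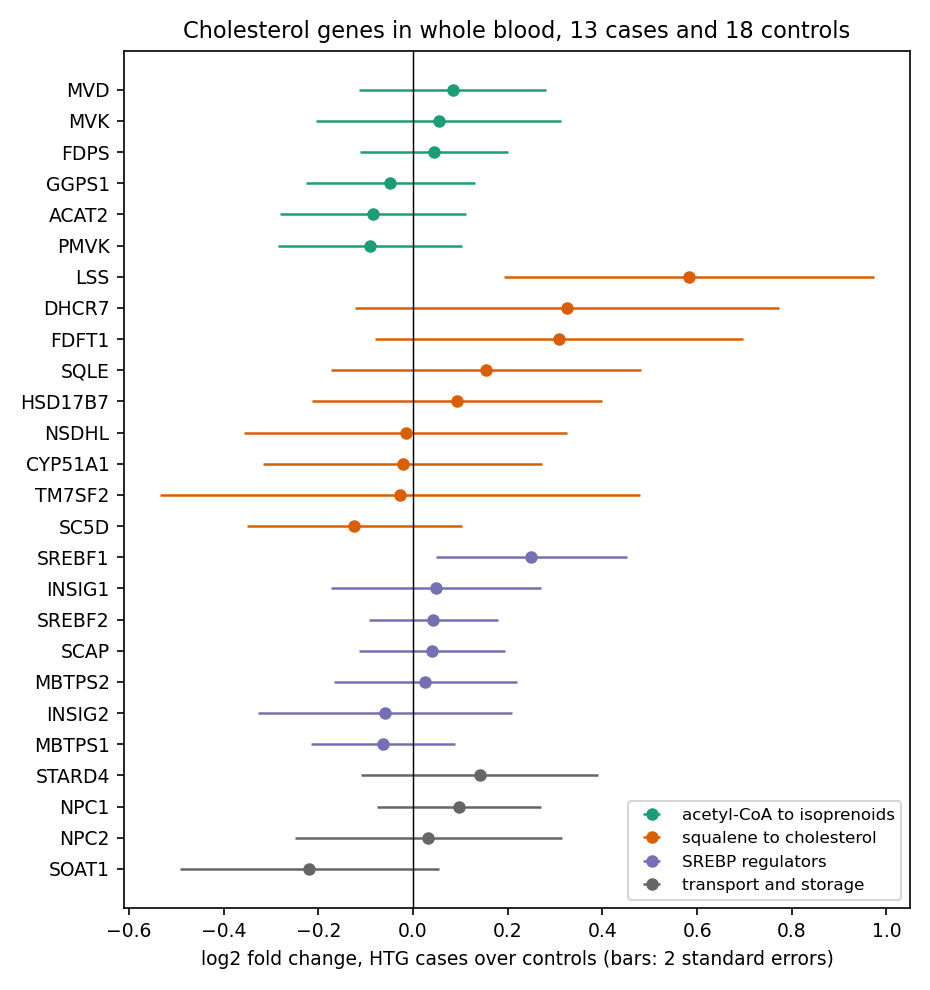
Log2 fold change of each of the 26 tested cholesterol genes in HTG cases over controls, on the horizontal axis, with bars of 2 standard errors on either side and colours for the role of each gene. The bars of LSS (0.58) and SREBF1 (0.25) lie wholly above 0, and those of the other 24 genes cross it.

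LSS (ENSCAFG00000011957) encodes lanosterol synthase, the enzyme that closes the sterol rings, and had the smallest P-value of the members. Its level ran from 0.95 to 3.22 log2 CPM in the cases (median 1.81) and from -0.25 to 1.97 log2 CPM in the controls (median 1.51). Although the groups overlapped, 11 of 13 cases exceeded the control median and 4 cases (case_01, case_02, case_04 and case_06) lay above every control. In linear terms it had 4.01 ± 1.94 against 2.67 ± 0.765 CPM (13 cases and 18 controls, SD), from 13 to 154 counts per dog. The log2 fold change was 0.58 (standard error, SE, 0.20, unadjusted P = 0.00543, adjusted P = 0.284 by edgeR), which ranked it 266 among all genes. On the side of the 10 dogs with high small RNA levels the log2 fold change was 0.29 (SE 0.40), and among the other 21 dogs it was 0.75 (SE 0.20). Without case_01 it was 0.42 (SE 0.18).

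SREBF1 (ENSCAFG00000018436) encodes SREBP1, the SREBP best known for fatty acid synthesis. It lay between 3.66 and 4.79 log2 CPM in the cases (median 4.26) and between 3.25 and 4.63 log2 CPM in the controls (median 3.98). The ranges overlapped almost wholly, but 10 of 13 cases were above the median of the controls and a single control was above the median of the cases. This corresponded to 19.1 ± 4.09 against 16.1 ± 2.88 CPM (13 cases and 18 controls, SD), a log2 fold change of 0.25 (SE 0.10, unadjusted P = 0.0184, adjusted P = 0.372 by edgeR). It was 0.003 (SE 0.19) among the 10 dogs with high small RNA levels and 0.37 (SE 0.11) among the other 21, and 0.16 (SE 0.11) once the platelet score was added to the fit. The part that the platelet and small RNA differences have in this result was not tested.

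**Figure D2:**
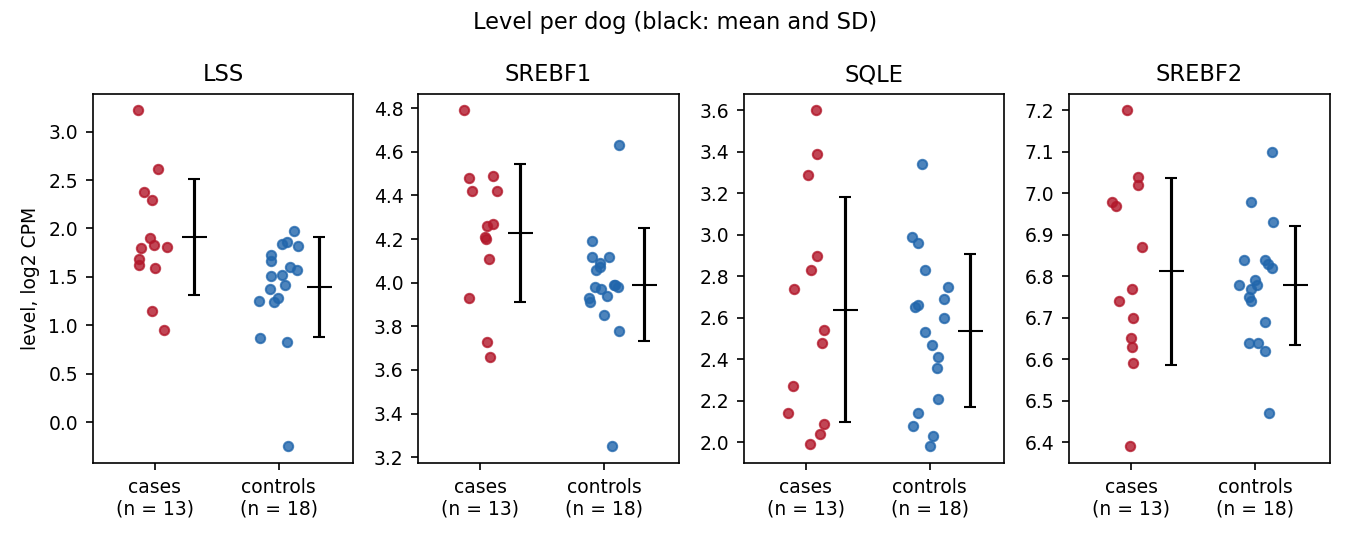
Level in log2 CPM of LSS, SREBF1, SQLE and SREBF2 in each dog (points), with the mean and SD of the group beside the points, for 13 cases and 18 controls. For LSS, 4 cases lie above the highest control, which is at 1.97, while for SREBF2 the medians of the groups are 6.77 and 6.78.

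The 6 tested enzymes from acetyl-CoA to isoprenoids had log2 fold changes between -0.09 and 0.08, and 3 of the 6 were above 0. ACAT2, which joins acetyl-CoA units in the cytosol, had 10.6 ± 2.40 against 11.2 ± 1.43 CPM (13 cases and 18 controls, SD). The kinases of mevalonate, MVK and PMVK, had log2 fold changes of 0.05 (interval of 2 standard errors from -0.21 to 0.31) and -0.09 (interval -0.29 to 0.10). MVD, which makes isopentenyl pyrophosphate, had 28.7 ± 6.63 against 27.1 ± 4.39 CPM (13 cases and 18 controls, SD). FDPS, which makes farnesyl pyrophosphate, had 23.9 ± 2.87 against 23.2 ± 3.76 CPM (13 cases and 18 controls, SD), and GGPS1, which extends it to geranylgeranyl pyrophosphate, had 16.0 ± 2.61 against 16.6 ± 2.91 CPM. The groups overlapped in every gene of this step, and the adjusted P-values were at least 0.807 in the edgeR test.

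The enzymes from squalene to cholesterol varied more. SQLE (ENSCAFG00000001056), the squalene epoxidase and a rate-limiting step, lay between 1.99 and 3.6 log2 CPM in the cases (median 2.54) and between 1.98 and 3.34 log2 CPM in the controls (median 2.56). The ranges nearly coincided, and the log2 fold change was 0.15 (SE 0.16, interval -0.17 to 0.48, adjusted P = 0.807 by edgeR). It was 0.049 without case_01. The sign was opposite on the sides of the small RNA split, with -0.36 (SE 0.21) among the 10 dogs of the high side and 0.40 among the other 21. FDFT1 (ENSCAFG00000007948), the squalene synthase that commits isoprenoids to sterols, lay between 4.84 and 6.85 log2 CPM in the cases (median 5.57) and between 4.71 and 6.93 log2 CPM in the controls (median 5.16). Of the 13 cases, 11 were above the median of the controls, and none was above the highest control, control_03. The log2 fold change of FDFT1 was 0.31 (SE 0.19, adjusted P = 0.636 by edgeR), and it was 0.02 (SE 0.08) with the erythroid marker score as a covariate. It was 0.15 without case_01 and 0.47 without control_03 (adjusted P = 0.897 and 0.101 by edgeR). DHCR7, the last reductase of the pathway, had a log2 fold change of 0.33 (SE 0.22, adjusted P = 0.66 by edgeR), from 1.88 ± 0.691 against 1.5 ± 0.635 CPM (13 cases and 18 controls, SD). For the remaining enzymes, CYP51A1, TM7SF2, NSDHL, HSD17B7 and SC5D, which strip and rearrange groups on the sterol rings, estimates lay between -0.12 and 0.09. TM7SF2 was measured with only 3 to 45 counts per dog, which leaves an interval of -0.53 to 0.48 for its log2 fold change.

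Among the regulators, SREBF2 (ENSCAFG00000001013), the SREBP that drives sterol synthesis, had 113 ± 17.7 against 110 ± 11.0 CPM (13 cases and 18 controls, SD). The levels ran from 6.39 to 7.20 log2 CPM in the cases and from 6.47 to 7.10 in the controls, so that the cases spanned all controls. The log2 fold change was 0.04, and its interval from -0.09 to 0.18 was among the narrowest. SCAP (ENSCAFG00000013200) had 38.8 ± 5.11 against 37.8 ± 5.50 CPM (13 cases and 18 controls, SD), and lay between 5.00 and 5.58 log2 CPM in the cases (median 5.35) and between 4.53 and 5.56 in the controls (median 5.27). INSIG1 (ENSCAFG00000005081), itself a target of SREBPs, lay between 3.34 and 4.41 log2 CPM in the cases (median 4.06) and between 3.04 and 4.36 log2 CPM in the controls (median 3.96). Its log2 fold change was 0.05 (interval -0.17 to 0.27), and 0.22 (SE 0.11, unadjusted P = 0.0617) with the platelet score in the fit, with which STARD4 was at 0.29 (SE 0.14, unadjusted P = 0.042) and SQLE at 0.35 (SE 0.17, unadjusted P = 0.0549). Over 18 alternative fits, this one among them, the lowest adjusted P-values of INSIG1, STARD4 and SQLE were 0.518, 0.512 and 0.417. INSIG2, MBTPS1 and MBTPS2 had log2 fold changes of -0.06, -0.06 and 0.03. All regulators other than SREBF1 had adjusted P-values of at least 0.831 in the edgeR test without covariates.

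Of the proteins that move or store sterol, SOAT1, which esterifies cholesterol for storage, had the lowest estimate of all members, at -0.22 (SE 0.14, adjusted P = 0.632 by edgeR). It had 16.1 ± 3.51 against 18.7 ± 5.78 CPM (13 cases and 18 controls, SD), and 14 of 18 controls lay above the median of the cases. STARD4 (ENSCAFG00000030762), a cytosolic sterol carrier, lay between 1.95 and 2.91 log2 CPM in the cases (median 2.36) and between 1.4 and 2.84 in the controls (median 2.39), with a log2 fold change of 0.14 (interval -0.11 to 0.39). NPC1 (ENSCAFG00000018183), which exports LDL-derived cholesterol from lysosomes, lay between 4.45 and 4.91 log2 CPM in the cases (median 4.72) and between 4.14 and 5.16 log2 CPM in the controls (median 4.55). The controls spanned the cases, although 11 of 13 cases exceeded the control median, and the log2 fold change was 0.10 (interval -0.08 to 0.27). Its lysosomal partner NPC2 had a log2 fold change of 0.03 (interval -0.25 to 0.31).

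The levels of the cholesterol genes were next set against the serum cholesterol and triglycerides of the same dogs, within each group, to ask whether sterol genes in blood cells follow the lipids around them. Serum cholesterol was known for 12 cases and 15 controls, and triglycerides for all dogs. Slopes are the change in log2 level per doubling of the blood value. In the edgeR test 0 members passed the threshold in any of the 4 relations, where 0% of all genes did so in each, and DESeq2 called 0 members too. At an unadjusted P-value under 0.05 there were 0 of 25 members for cholesterol within cases (of all genes 2.2%, with 1.02% rising and 1.18% falling with the blood value), and 1 with a negative slope for cholesterol within controls (6.58%, with 2.92% and 3.66%). There were 2 with positive slopes for triglycerides within cases (6.2%, with 4.46% and 1.74%), and 1 positive and 1 negative for triglycerides within controls (11.7%, with 8.29% and 3.38%). TM7SF2 had too few counts for these fits.

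For cholesterol within the cases, the 3 members with the smallest P-values were HSD17B7, a sterol 3-keto reductase, with a slope of -0.39 (SE 0.18, P = 0.0527), LSS, with 0.49 (SE 0.25, P = 0.0712), and NPC1, with 0.15 (SE 0.09, P = 0.13), which was 0.096 without case_05. The edgeR adjusted P-value of each was 1.00 to 2 decimals. Pearson's r over the 12 cases was -0.623 for HSD17B7 (permutation P = 0.0306), 0.484 for LSS (permutation P = 0.11) and 0.541 for NPC1 (permutation P = 0.0692). Spearman's rho was -0.51, 0.615 and 0.65, respectively (permutation P = 0.0943, 0.0379 and 0.0251). Without the 2 dogs farthest from the median cholesterol, r was -0.373, 0.515 and 0.404. None of these correlations had an adjusted P-value under 0.9999 over the 11948 genes of this relation.

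For cholesterol within the controls, CYP51A1, the lanosterol demethylase, had a slope of -0.50 (SE 0.21, unadjusted P = 0.0305, adjusted P = 0.694 by edgeR), which was lower expression with higher cholesterol. Over the 15 controls r was -0.565 (permutation P = 0.0264, adjusted P = 0.734) and rho was -0.522 (permutation P = 0.0481, adjusted P = 0.725). Without the 2 farthest dogs r was -0.368. DHCR7 had a slope of -0.82 (SE 0.41, P = 0.0631; r = -0.529, permutation P = 0.0421) and INSIG1 one of -0.32 (SE 0.16, P = 0.0713; r = -0.473, permutation P = 0.0763), both with an adjusted P = 0.694 in the edgeR test. Spearman's rho was -0.397 for DHCR7 (permutation P = 0.143) and -0.474 for INSIG1 (permutation P = 0.0769), and without the 2 farthest dogs r was -0.394 and -0.382. Among the controls, 6 of 25 slopes on cholesterol and 6 of 25 slopes on triglycerides were above 0 (24%, against 46.3% and 50.3% of all genes), and in the cases it was 12 and 15 of 25 (48% and 60%, against 51.7% and 47.9%). The 2 relations within a group share their dogs. Without the 2 farthest dogs, r with cholesterol within the controls was above 0 for 13 of 25 members, against 6 with all dogs, and r with triglycerides was above 0 for 8, against 6. Within the cases, r without the 2 farthest dogs was above 0 for 13 members with cholesterol, against 10 with all dogs, and for 10 with triglycerides, against 15. On ranks of the blood value 9 and 6 slopes were above 0 within the controls, and 12 and 16 within the cases. With sex as a covariate the cholesterol slope was -0.31 for CYP51A1 and -0.13 for INSIG1, and with age as a covariate it was -1.4 for DHCR7 and -0.17 for INSIG1.

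For triglycerides within the cases, LSS had the smallest P-value of the members. Its slope was 0.52 per doubling (SE 0.11, unadjusted P = 0.00025, adjusted P = 0.246 by edgeR), and it ranked 10 of 11873 genes by P-value. Over the 13 cases r was 0.804 (permutation P = 0.00098, adjusted P = 0.95) and rho was 0.709 (permutation P = 0.00874). Without the 2 dogs farthest from the median triglycerides r was 0.578. The slope was 0.44 without case_01 (unadjusted P = 0.0155) and 0.49 with the small RNA split as a covariate (unadjusted P = 0.000489). With triglycerides in mg/dL in place of their logarithm, 144 genes passed the threshold, LSS among them (adjusted P = 0.0284 by edgeR). Case_01, which had the highest triglycerides and the highest LSS level, has the most weight on this scale. With ranks of the triglycerides 0 genes passed (LSS unadjusted P = 0.00132, adjusted P = 0.999 by edgeR). FDFT1 had a slope of 0.29 (SE 0.12, unadjusted P = 0.0251, adjusted P = 0.683), with r = 0.444 (permutation P = 0.13) and rho = 0.242 (permutation P = 0.427) over the 13 cases. It rested on case_01, without which the slope was -0.032, and r was -0.157 without the 2 farthest dogs. PMVK had a slope of -0.13 (SE 0.08, unadjusted P = 0.115 by edgeR), with r = -0.48 (permutation P = 0.0958), rho = -0.335 (permutation P = 0.263) and r = -0.484 without the 2 farthest dogs. Its slope was -0.07 without case_01 and -0.081 without case_12.

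For triglycerides within the controls, FDFT1 had a slope of 0.66 (SE 0.25, unadjusted P = 0.0153, adjusted P = 0.404 by edgeR), with r = 0.466 (permutation P = 0.044), rho = 0.514 (permutation P = 0.0304) and r = 0.314 without the 2 farthest dogs. Without control_03, the dog with the highest FDFT1 level and erythroid score, the slope was 0.29 (unadjusted P = 0.118 by edgeR). INSIG1 had a slope of -0.35 (SE 0.15, unadjusted P = 0.0267, adjusted P = 0.408), with r = -0.54 (permutation P = 0.0182), rho = -0.588 (permutation P = 0.0121) and r = -0.47 without the 2 farthest dogs. SOAT1 had a slope of -0.36 (SE 0.22, unadjusted P = 0.116), with r = -0.389 (permutation P = 0.11), rho = -0.377 (permutation P = 0.122) and r = -0.44 without the 2 farthest dogs. After adjustment over all genes of the relation, the lowest adjusted P-value of these members was 0.508 for r and 0.348 for rho within the controls, and 0.95 for r and 1.00 for rho within the cases.

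**Figure D3:**
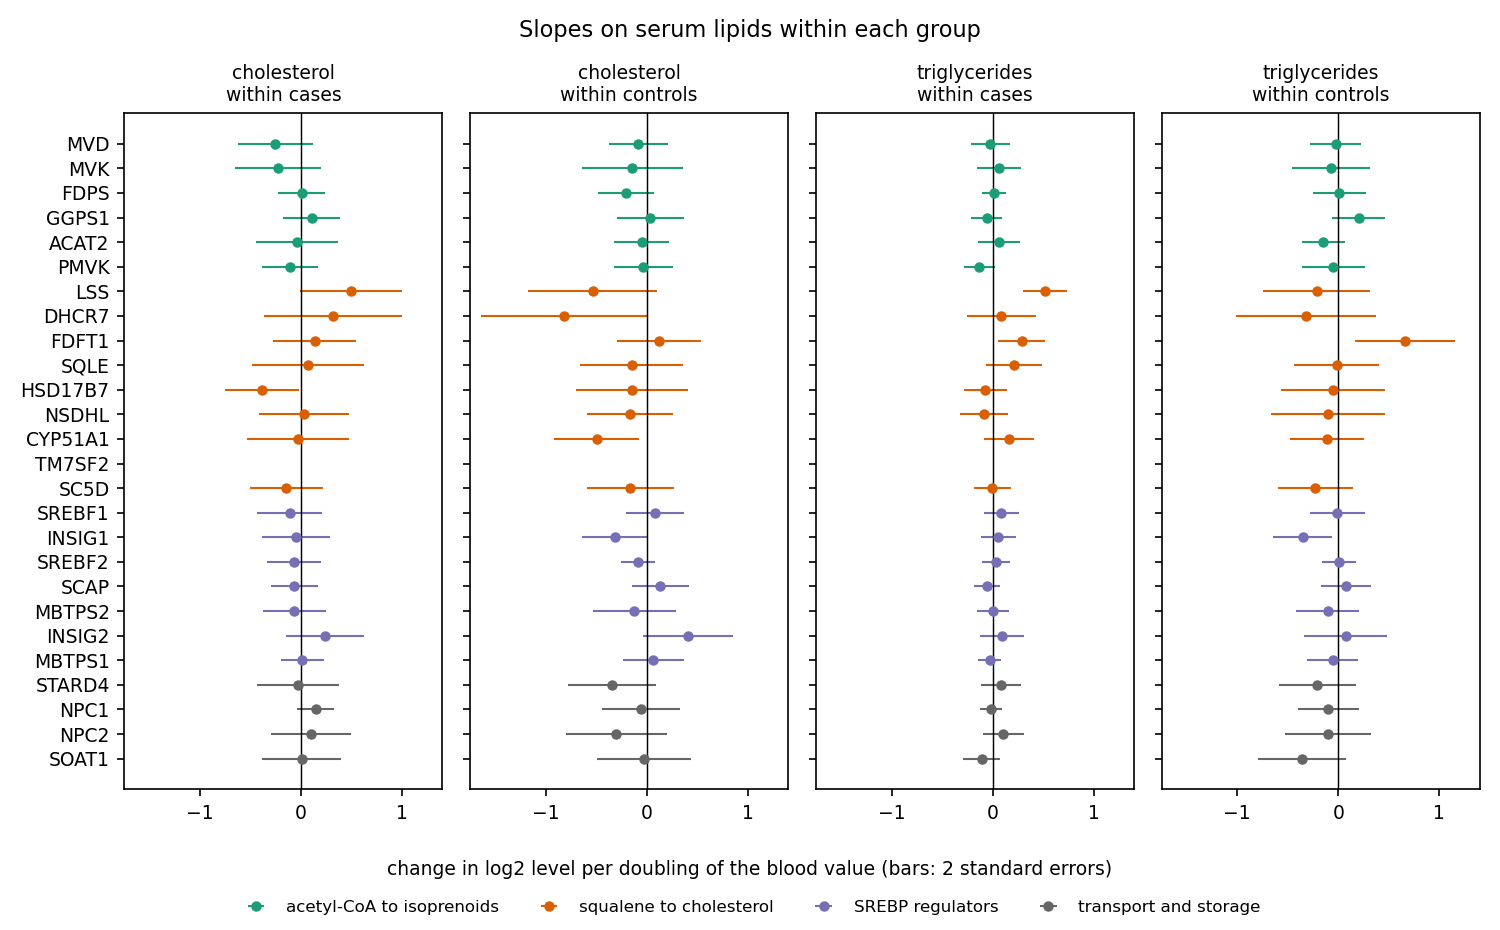
Slope of each cholesterol gene on serum cholesterol (12 cases, 15 controls) and on triglycerides (13 cases, 18 controls), as the change in log2 level per doubling, with bars of 2 standard errors and colours for the role of each gene. LSS has a slope of 0.52 on triglycerides within the cases and -0.21 within the controls, and TM7SF2 has no point because it was not tested there.

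The slopes of cases and controls were then compared with each other. In the edgeR test of the difference of slopes, 0 of 26 members passed the threshold for cholesterol or for triglycerides, where 0% of all genes did so for either, and DESeq2 called 0 members. At an unadjusted P-value under 0.05 there were 2 members in each (7.69%), against 2.44% of all genes for cholesterol (1.65% with a higher and 0.784% with a lower slope in the cases) and 7.76% for triglycerides (3.44% higher and 4.32% lower). All 4 member differences were higher. The slope of LSS was higher in the cases by 1.05 for cholesterol (SE 0.42, unadjusted P = 0.0183, adjusted P = 0.999) and by 0.75 for triglycerides (SE 0.28, unadjusted P = 0.0119, adjusted P = 0.634). The cholesterol difference rested on control_02, which had the lowest LSS level, -0.25 log2 CPM from 13 counts, and the highest cholesterol of the controls. Without this dog it was 0.48 (SE 0.40, unadjusted P = 0.24), and the triglyceride difference was 0.57 (SE 0.24, unadjusted P = 0.0234). Within the controls, r of LSS with cholesterol was -0.554 (permutation P = 0.0411, adjusted P = 0.734) but rho was -0.132 (permutation P = 0.636), and r was 0.019 without the 2 dogs farthest from the median. Without case_01 the triglyceride difference was 0.66 (SE 0.31, unadjusted P = 0.044). DHCR7 differed by 1.16 for cholesterol (SE 0.56, unadjusted P = 0.0476) and INSIG1 by 0.42 for triglycerides (SE 0.17, unadjusted P = 0.0214). The adjusted P-values of the members were at least 0.999 for cholesterol and 0.634 for triglycerides in the edgeR test. Within the controls the cholesterol slope of DHCR7 was -0.82, and -0.57 without control_02 (SE 0.52, unadjusted P = 0.291 by edgeR). Of the 26 differences 18 were above 0 for cholesterol (69.2%, against 55.2% of all genes) and 21 for triglycerides (80.8%, against 50.1%).

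Blood is a mixture of cells, and some cholesterol genes moved with the marker genes of a cell type across the 31 dogs. In these bulk samples, fewer cells of a type and less RNA per cell cannot be told apart. In fits with the group as a covariate, 30.8% of all genes passed the threshold for a slope on the erythroid score and 5 of 26 members did. FDFT1 rose by 0.43 on the log2 scale per unit of the erythroid score (SE 0.03, adjusted P = 3.17e-12 by edgeR), and by 0.33 without case_01 and control_03 (adjusted P = 6.28e-07). These dogs had the highest FDFT1 levels, 6.85 and 6.93 log2 CPM. GGPS1 also rose with the erythroid score, by 0.10 (adjusted P = 0.045 by edgeR), while NSDHL, the sterol decarboxylase, fell by 0.23, MBTPS2 by 0.11 and STARD4 by 0.14 (adjusted P = 0.0261, 0.0398 and 0.0472). NSDHL did not pass without case_01 and control_03 (-0.12, adjusted P = 0.298). STARD4 did not pass without them (-0.16, adjusted P = 0.0904) or with the small RNA split as a covariate (-0.12, adjusted P = 0.0623). With the neutrophil and T cell scores as further covariates FDFT1 alone passed, with slopes of 0.38 for FDFT1, -0.18 for STARD4, -0.17 for NSDHL, 0.079 for GGPS1 and -0.064 for MBTPS2.

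The slopes on the neutrophil score passed for 4 members, where 25.4% of all genes passed. FDFT1 rose by 0.67 and MVD by 0.29, and MVK fell by 0.34 and MBTPS1 by 0.17 (adjusted P = 0.00106, 0.0058, 0.024 and 0.0499 by edgeR). MBTPS1 did not pass without case_01 and control_03 (-0.18, adjusted P = 0.0593) or with the small RNA split as a covariate (-0.17, adjusted P = 0.0507), at slopes of like size. FDFT1 rose by 0.40 without these dogs. On the T cell score, 5 members passed, where 34.9% of all genes passed. MBTPS1, MBTPS2 and ACAT2 rose with this score, by 0.38, 0.41 and 0.38, and FDFT1 and GGPS1 fell by 1.01 and 0.30 (adjusted P = 0.00169, 0.01, 0.022, 0.00103 and 0.0454). ACAT2 did not pass with the small RNA split as a covariate (0.33, adjusted P = 0.0548), and FDFT1 fell by 0.59 without case_01 and control_03. The scores of these cell types are not independent of each other in the same libraries.

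The monocyte score gave a shorter list, with 0.675% of all genes and 2 members, SOAT1 and NPC2. SOAT1 lay between 3.08 and 5.12 log2 CPM in the controls and between 3.5 and 4.49 in the cases, and rose by 0.61 per unit of the score (SE 0.13, adjusted P = 0.0157 by edgeR). NPC2 lay between 4.46 and 5.98 log2 CPM in the controls and between 4.45 and 5.72 in the cases, and rose by 0.56 (SE 0.14, adjusted P = 0.0494). Without case_01 and control_03 the slopes were 0.53 and 0.58, and neither passed (adjusted P = 0.119 and 0.142), with 0 members left. SOAT1 and NPC2 also had the highest correlation of all 325 pairs of members, r = 0.675 across the 31 dogs with the group means removed, and 0.78 without these dogs.

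**Figure D4:**
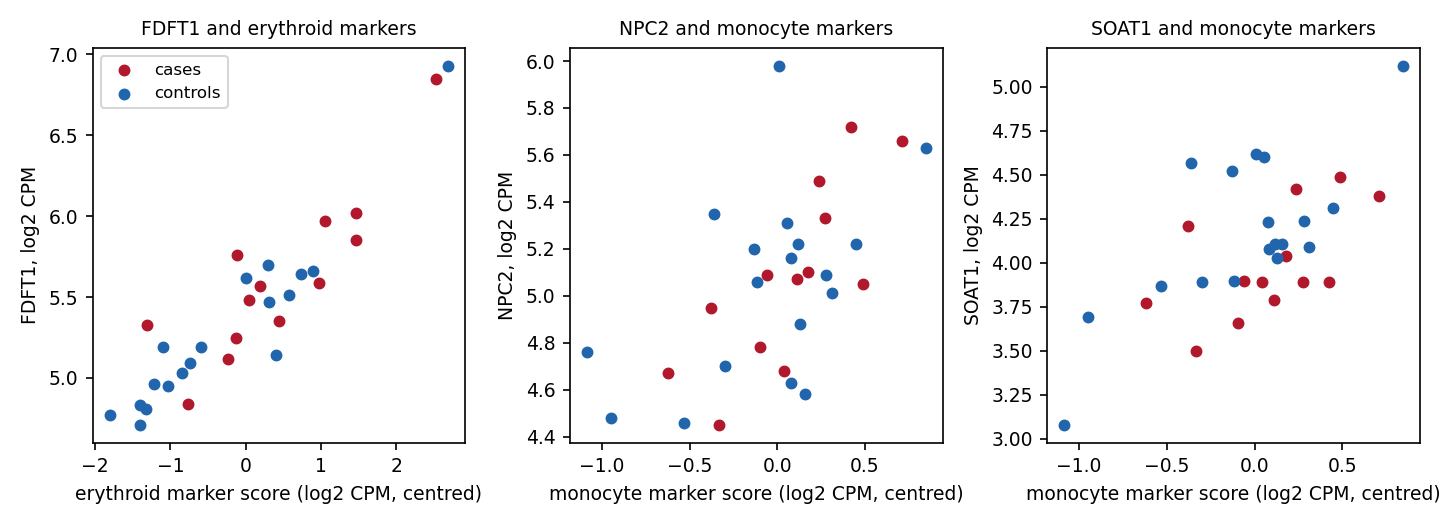
Level in log2 CPM of FDFT1 against the erythroid marker score, and of NPC2 and SOAT1 against the monocyte marker score, for each of 13 cases and 18 controls (points, coloured by group). FDFT1 follows the erythroid score in both groups, with case_01 and control_03 at the upper right at 6.85 and 6.93 log2 CPM.

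On the platelet score, where 12.8% of all genes passed, INSIG1 was the single member to pass, with a slope of -0.30 (SE 0.10, adjusted P = 0.0439 by edgeR). It did not pass without case_01 and control_03 (-0.23, adjusted P = 0.132) or with the small RNA split as a covariate (-0.21, adjusted P = 0.353). Slopes on the B cell, cytotoxic and eosinophil scores called 0 members in edgeR, where 1.12%, 1.2% and 0.582% of all genes passed, with 4, 3 and 5 members at an unadjusted P-value under 0.05 (15.4%, 11.5% and 19.2%, against 19.2%, 18.4% and 10.3% of all genes).

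Between the dogs with high and low small RNA levels, 7.57% of all genes passed and SQLE was the single member to pass. The split was defined on 345 of these genes, of which 55.4% passed, and 6.35% of the other 13573 genes did. With the 345 genes left out of the adjustment, 5.68% passed and SQLE did not (adjusted P = 0.0533). It ran from 1.98 to 3.6 log2 CPM on the low side (median 2.69, 21 dogs) and from 1.99 to 2.99 log2 CPM on the high side (median 2.14, 10 dogs). It was lower on the high side by -0.50 on the log2 scale (SE 0.16, adjusted P = 0.0443 by edgeR), and by -0.43 without case_01 and control_03 (adjusted P = 0.122). INSIG1, STARD4 and NPC2 had estimates of -0.30, -0.35 and -0.39 (adjusted P = 0.0858, 0.0766 and 0.0819). Between males and females 0 members passed in edgeR, where 0.122% of all genes did, and 0 members had an unadjusted P-value under 0.05, against 4.89% of all genes.

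Co-variation among the members was then described across the 31 dogs after removing the group means, with no test, because all pairs share the libraries and their normalization. The median Pearson's r was 0.0711 over all 325 pairs of members, 0.156 over the 36 pairs of enzymes from squalene to cholesterol and 0.0258 over the 15 pairs of enzymes from acetyl-CoA to isoprenoids, against -0.0012 over all pairs of tested genes. With the small RNA split also removed these medians were 0.0394, 0.105 and -0.0049, and without case_01 and control_03 they were 0.0758, 0.13 and 0.0677. The highest value between enzymes, 0.663 between PMVK and NSDHL, was 0.312 without case_01 and control_03. The r of SQLE was 0.586 with LSS, 0.575 with CYP51A1 and 0.567 with INSIG1, and that of CYP51A1 was 0.639 with ACAT2 and 0.607 with FDPS. Without these dogs the last 5 values were 0.513, 0.554, 0.5, 0.655 and 0.66. SCAP and MBTPS1, partners in SREBP processing, had r = 0.667, and 0.667 without these dogs. The lowest value, -0.642 between FDFT1 and NSDHL, was -0.301 without them.

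**Figure D5:**
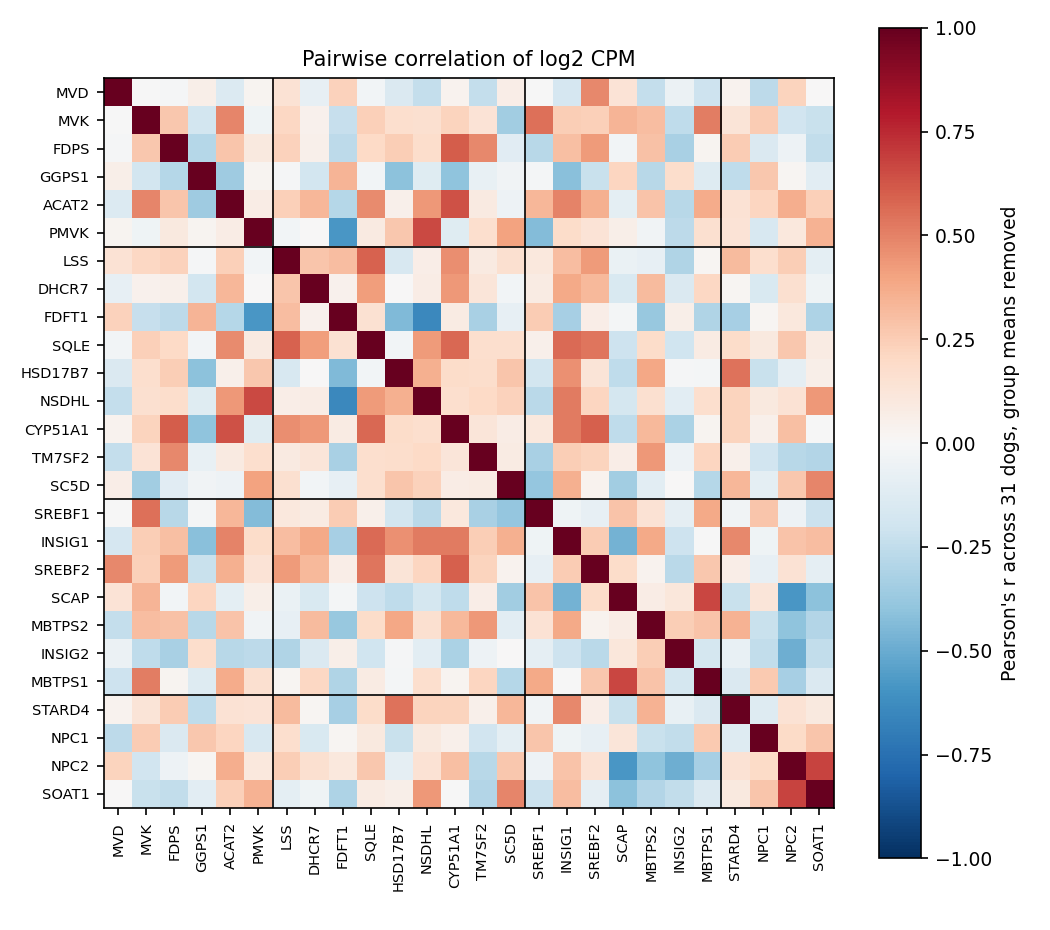
Pearson's r of log2 CPM for each pair of the 26 tested members across 31 dogs with the group means removed, from -1 (blue) to 1 (red), with lines between the roles. SQLE, LSS, CYP51A1, INSIG1 and SREBF2 are positively correlated with each other, and FDFT1 and NSDHL have the lowest value, -0.642.

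The level of SREBF2 itself was also used as a predictor, with the group as a covariate. In the edgeR test 0 of the other 25 members passed, where 0% of all genes did. At an unadjusted P-value under 0.05 there were 6 members, all with a positive slope (24%, against 9.2% of all genes in either direction and 4.92% positive), namely CYP51A1, SQLE, MVD, LSS, FDPS and ACAT2, all enzymes of the synthesis pathway. CYP51A1 had a slope of 1.4 (SE 0.35, unadjusted P = 0.000321, adjusted P = 0.252), which ranked it 16 among all genes. SQLE had a slope of 1.30 (SE 0.38, adjusted P = 0.397), LSS 1.25, MVD 0.74, ACAT2 0.56 and FDPS 0.50. With SREBF1 as the predictor 0 of 25 members passed, where 1.41% of all genes did. At an unadjusted P-value under 0.05 there were 5 members (20%, against 18.3% of all genes), with MVK, FDFT1 and MBTPS1 positive and SC5D and PMVK negative. With the group means removed, r with SREBF1 was 0.25 for FDFT1 and -0.431 for PMVK. Without case_01 and control_03 these values were -0.357 and -0.0802. Those of MVK, MBTPS1 and SC5D were then 0.587, 0.53 and -0.257.

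The spread between dogs sets what could be seen. The within-group SD of log2 CPM had a median of 0.331 over the members, against 0.364 over all genes tested, and 14 of 26 members were below the latter. SREBF2 was the steadiest, with 0.182, and DHCR7 the most variable, with 0.625, at 8 to 87 counts per dog.

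Other lists of the pathway were counted in the same comparison of cases with controls, and 0 of their genes passed the threshold in edgeR. The median log2 fold change was 0.06 for fatty acid synthesis, -0.07 for isoprenoid use, 0.03 for sterol-regulated degradation, 0.06 for uptake and lysosome and 0.01 for sterol transport, against -0.02 for all genes. Of 10 genes of fatty acid synthesis, also driven by SREBPs, 2 were higher at an unadjusted P-value under 0.05, against 5.04% of all genes. ME1, malic enzyme, had 1.34 ± 1.24 against 0.542 ± 0.477 CPM (13 cases and 18 controls, SD), a log2 fold change of 1.33 (SE 0.45, adjusted P = 0.284 by edgeR). FADS2, a fatty acid desaturase, had 14.1 ± 6.32 against 9.46 ± 4.99 CPM (13 cases and 18 controls, SD), a log2 fold change of 0.58 (SE 0.23, adjusted P = 0.358). Of 12 genes of lipoprotein uptake and lysosomal hydrolysis, 1 was higher and 1 lower at an unadjusted P-value under 0.05, against 5.04% and 4.76% of all genes. The higher one, SCARB1, a receptor for HDL, had a log2 fold change of 0.23 (SE 0.09, unadjusted P = 0.0126, adjusted P = 0.343 by edgeR). Of 10 genes of sterol-regulated protein degradation, 1 was higher at an unadjusted P-value under 0.05, against 5.04% of all genes. UFD1, which did not reach it, had a log2 fold change of 0.29 (unadjusted P = 0.111 by edgeR). Of 12 genes that use isoprenoids and 10 of sterol transport, 0 reached an unadjusted P-value under 0.05, against 9.81% of all genes, with PGGT1B at -0.15, COQ2 at -0.13, OSBPL1A at 0.23 and GRAMD1B at -0.20.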

How the data were processed

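Whole-blood RNA of 31 dogs was sequenced, and the authors deposited read-pair counts per gene and dog, without normalization. Per their methods, reads were trimmed with Trimmomatic, aligned to canFam6 with HISAT2 and counted where both mates mapped. The counting program and annotation are not given in the sources used here, and the rows carry Ensembl identifiers. Group and sex came from the labels, age, body condition and serum lipids from the study's table of dogs.

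The counts were scaled by TMM with edgeR 4.0.16 in R 4.3.3, which also removed genes with low counts (filterByExpr) and tested groups and slopes with glmQLFit and glmQLFTest, with Benjamini-Hochberg adjustment over all genes tested and a threshold of 0.05. Levels are log2 CPM with a prior count of 2. Correlations were tested by permutation (100000 resamples) with numpy 2.4.6, and figures were drawn with matplotlib 3.10.9. The tests were checked on simulated counts with no change or with changes larger than any member fold change between cases and controls. This check does not show whether changes of the members' size could be detected. Depth was 14524659 to 41533599 counts per dog. Each dog is a separate animal with 1 library, so P-values cover the spread between dogs. No batch term was fitted, since the sources do not name the dogs prepared earlier.

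The members and lists were chosen with earlier results of these data known. Named were members past the threshold in any comparison or at an unadjusted P-value under 0.05 between groups, SQLE, INSIG1, SREBF1, SREBF2, SCAP, STARD4 and NPC1, the 3 smallest P-values of each slope, and genes among the 2 smallest of each other list. Values of other members are given beside these. Alternatives were DESeq2 1.42.0, limma-voom 3.58.1, other normalizations and filters, covariates, scales of the blood value and sets of dogs. The alternatives to the marker-score slopes and to the small RNA comparison, the differences of slopes without single dogs and the counts of signs were chosen after seeing the data. Some genes of this pathway are not reported here.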

Additional observations from a re-analysis of the deposited data

How the results depend on the processing

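The number of members called between cases and controls was 0 under each of 18 alternatives (DESeq2, limma-voom, other normalizations, filters, covariates and sets of dogs) and without each dog in turn. The slopes on cholesterol, those on triglycerides within controls and both differences of slopes also gave 0 members under every alternative run, although the LSS difference for cholesterol was 0.48 without control_02. For triglycerides within cases the number was 1, LSS, with the blood value in mg/dL, and 0 under the other 9 alternatives and without each dog in turn. The log2 fold change of LSS ranged from 0.29 to 0.75 over the 18 alternatives and from 0.42 to 0.64 without each dog. Small estimates changed sign. With the platelet score as a covariate SCAP was at -0.025, with the neutrophil score SREBF2 was at -0.00078, without case_01 and control_03 INSIG1 was at -0.034, and on the high side of the small RNA split SQLE, INSIG1, SREBF2, SCAP and NPC1 were at -0.36, -0.15, -0.016, -0.041 and -0.021. The slope of FDFT1 on triglycerides within cases was -0.079 without the 2 dogs farthest from the median, and from -0.032 (without case_01) to 0.34 without each dog in turn. Without case_01 and control_03, members called fell to 0 for the small RNA split, the monocyte score and the platelet score, and to 3 for the erythroid score. They stayed at 4 for the neutrophil score and rose to 6 for the T cell score. The number was also 0 for the split with the small RNA genes left out of the adjustment. With the small RNA split as a covariate members called were 1 for the monocyte score and 0 for the platelet score, and with the neutrophil and T cell scores as covariates they were 1 for the erythroid score. The causes were not tested. Dog numbers, which recur in both groups, did not pair the dogs (correlations of deviations from -0.511 to 0.398 over 13 pairs, 4 of them over 0.1). With this replicate block 0 members were called, LSS was at 0.50 and SREBF1 at 0.28. TM7SF2, DHCR7 and MSMO1 had low counts, and the part of depth in this was not tested.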

Other observations

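The other lists of the pathway were also set against serum lipids within each group, and 0 of their genes passed the threshold in edgeR in any of the 4 relations. The largest median slope was that of 9 genes of sterol transport on triglycerides within the controls, 0.31 per doubling, with 1 gene higher at an unadjusted P-value under 0.05, or 1 of 9 genes against 8.29% of all genes. The same list had a median slope of -0.03 within the cases.

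MSMO1 was too low to test. It reached 15 counts in the highest case and 19 in the highest control, and the middle dog of each group had 0 and 1.5 counts. The mean was 0.144 ± 0.227 against 0.146 ± 0.175 CPM (13 cases and 18 controls, SD).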
